A study of Mus musculus with 6 samples.

Results

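GTPases of immunity-associated proteins (GIMAPs) are small GTP-binding proteins found mostly in lymphocytes, and 8 genes of the family, Gimap1 and Gimap3 to Gimap9, were chosen by their symbols in the deposited table of 18543 genes. All 8 were listed there and all 8 passed the filter on low counts. Messenger RNA came from group 2 innate lymphoid cells (ILC2s), tissue lymphocytes that answer epithelial alarm signals with type 2 cytokines, taken by sorting lung tissue of C57BL/6 mice, 8 weeks old. Every mouse, controls included, had received 0.5 µg of recombinant mouse IL-33 into the nose on each of 3 days before cell isolation on day 4. The wild-type label covers 3 libraries (WT 1 to WT 3) and the Atg5-/- label another 3 (KO 1 to KO 3). Whether the Atg5 deletion was confined to some cells, and how many mice went into each library, the labels do not say.

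GIMAP proteins bind GTP through a domain related to that of septins and dynamins, and several are anchored to membranes of lysosomes, the endoplasmic reticulum or other organelles. Gimap5 is the best known: rodents that lack it lose T cells and other lymphocytes, and its protein sits on lysosomes. Gimap6 has been tied to autophagy, the route that Atg5 serves, because its protein binds GABARAPL2, a member of the ATG8 family that coats autophagosomes.

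The members lie in 1 cluster on chromosome 6 of the mm10 build, from 48647234 to 48770851, a span of 123618 bases. From Gimap8 at one end the order is Gimap9, Gimap4, Gimap6, Gimap7, Gimap1, Gimap5 and Gimap3 at the other end. Gimap6 and Gimap3 are on the reverse strand and the other 6 are on the forward strand. Gimap1 (48739054 to 48743795) ends 2401 bases before Gimap5 (48746197 to 48754210) begins. A gene model named Gm28053 (48718607 to 48752644) starts just before Gimap7, ends within Gimap5 and shares exon bases with Gimap7, Gimap1 and Gimap5, and the antisense transcript Gimap1os overlaps 36% of the exon bases of Gimap1.

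The sequences before the starts of Gimap4, Gimap7, Gimap1 and Gimap5 are shown because these 4 genes passed the test once WT 3 was omitted, the first 3 lower and Gimap5 higher under the knockout label. With all 6 libraries none of them passed. They are RefSeq sequences on GRCm38.p6, the assembly that mm10 names, on the forward strand and written 5′ to 3′. Each ends before any exon base of a protein-coding gene on that strand. The Gimap1 sequence lies within exon bases of the antisense transcript Gimap1os (48738346 to 48741444). Capitals mark matches to motifs searched on both strands in the 250 bases before each start.
Gimap4, chr6:48684328-48684548: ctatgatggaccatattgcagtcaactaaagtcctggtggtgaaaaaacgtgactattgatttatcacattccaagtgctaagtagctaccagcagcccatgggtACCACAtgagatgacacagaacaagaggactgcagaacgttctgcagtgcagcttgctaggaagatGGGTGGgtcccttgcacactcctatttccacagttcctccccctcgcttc
Gimap7, chr6:48718371-48718606: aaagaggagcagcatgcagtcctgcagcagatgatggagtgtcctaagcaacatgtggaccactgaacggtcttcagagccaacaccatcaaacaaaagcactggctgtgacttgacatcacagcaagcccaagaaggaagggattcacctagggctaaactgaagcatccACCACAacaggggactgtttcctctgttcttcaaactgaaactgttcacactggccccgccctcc
Gimap1, chr6:48738797-48739046: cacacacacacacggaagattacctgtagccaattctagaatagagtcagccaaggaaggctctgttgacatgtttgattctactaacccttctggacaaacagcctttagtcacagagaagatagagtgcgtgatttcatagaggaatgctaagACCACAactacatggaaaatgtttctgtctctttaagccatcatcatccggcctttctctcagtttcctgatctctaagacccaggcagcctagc
Gimap5, chr6:48745947-48746196: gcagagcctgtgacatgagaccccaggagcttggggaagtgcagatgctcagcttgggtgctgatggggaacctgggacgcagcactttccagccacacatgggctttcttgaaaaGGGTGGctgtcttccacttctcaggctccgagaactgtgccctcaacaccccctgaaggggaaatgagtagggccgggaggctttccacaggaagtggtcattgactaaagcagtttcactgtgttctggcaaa

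The letters TGTGGT of the RUNX motif, in capitals as ACCACA, were found before Gimap1, Gimap4 and Gimap7 and before none of the other 5 members, where 14% of 32536 RefSeq promoter windows of the same length hold them. They lie 90 to 95 bases before the start of Gimap1, 140 to 145 before that of Gimap4 and 74 to 79 before that of Gimap7. Distances run to the RefSeq start, which for Gimap4 and Gimap7 lies beyond the end of the printed sequence. Of the 250 bases searched, 221 are printed for Gimap4 and 236 for Gimap7. The letters CCACCC of the KLF and SP motif, in capitals as GGGTGG, were found before 4 members (Gimap3, Gimap4, Gimap5 and Gimap9), against 28.1% of all windows. TTCNNNGAA, the STAT5 motif, was found before Gimap6 alone (7.04% of all windows). CCGGAA, the only string searched for the ETS core, was found in none of the 8 windows (12.1% of all windows). The shorter letters GGAA occur in each printed sequence. The lack of CCGGAA therefore does not show that ETS sites are absent. The 8 windows also held no AGATAA of the GATA motif (9.97%), CACGTG of the E-box and CLEAR core (6.04%) or interferon-stimulated response element (2.98%). For Gimap8 these counts use the first listed start. The window of its other start held CCACCC and TTCNNNGAA. A match is a string of letters and does not show that a factor binds there.

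The libraries held between 28827545 and 33662979 estimated counts. Levels are in CPM, the usual depth-scaled count, on which 3 counts are worth 0.0892 to 0.104. Atg5, the targeted gene, had 66.3, 71.8 and 21.8 CPM from WT 1 to WT 3, against 23.0, 25.6 and 52.2 CPM from KO 1 to KO 3, so that the library labelled WT 3 had less of it than any library labelled knockout, and the library labelled KO 3 had more than WT 3, KO 1 or KO 2. Both libraries go against their labels on this gene. The log2 difference of Atg5 was -0.67 with all 6 libraries (SE 0.50, edgeR adjusted p = 0.478), -1.03 without WT 3 (SE 0.33, adjusted p = 0.0489) and -1.496 without both libraries numbered 3 (SE 0.12, adjusted p = 6.55e-06). These omissions were chosen with the Atg5 levels known, so the p-values of Atg5 without those libraries are not evidence of a difference. Across the 14052 genes tested, log2 CPM of the library labelled WT 3 correlated at 0.991 with KO 1 and at 0.946 with WT 1. That of the library labelled KO 3 correlated at 0.979 with KO 1 and at 0.933 with WT 1. Differences are therefore given with all 6 libraries and again without WT 3, a choice made with these values known. KO 3 stays in both fits, counts without it as well are given where stated, and directions are between labels. The labels do not say that the libraries came from separate mice, so the spread behind each p-value may be technical. All 10 ILC2 genes chosen for this check were present, with Il2ra highest at a mean of 2371 CPM. Thy1, at 0.67 to 9.85 CPM, was the 1 gene of these below 1 CPM in any library.

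In edgeR's quasi-likelihood fit to all 6 libraries, 0 of the 8 members passed the threshold (adjusted p under 0.05), against 0 of all 14052 genes tested (0%). Their adjusted p ranged from 0.342 to 0.946. Without the library labelled WT 3, Gimap4, Gimap7 and Gimap1 fell and Gimap5 rose, so 4 of 8 members passed where 33.9% of 14743 genes did. The fall of 3 members compares with 16.1% of all genes that fell, and the rise of 1 with 17.7% that rose. Gimap8, Gimap3, Gimap6 and Gimap9 did not pass. When KO 3 was left out as well, the same 4 members passed, beside 45.4% of all genes. DESeq2 with all 6 libraries passed Gimap4 alone (adjusted p = 0.0406), beside 2.55% of the genes to which it gave an adjusted p. In 3 members, Gimap5, Gimap7 and Gimap8, the 3 libraries labelled knockout lay entirely above or entirely below the 3 labelled wild type, which was so for 18.5% of all genes tested.

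**Figure D1:**
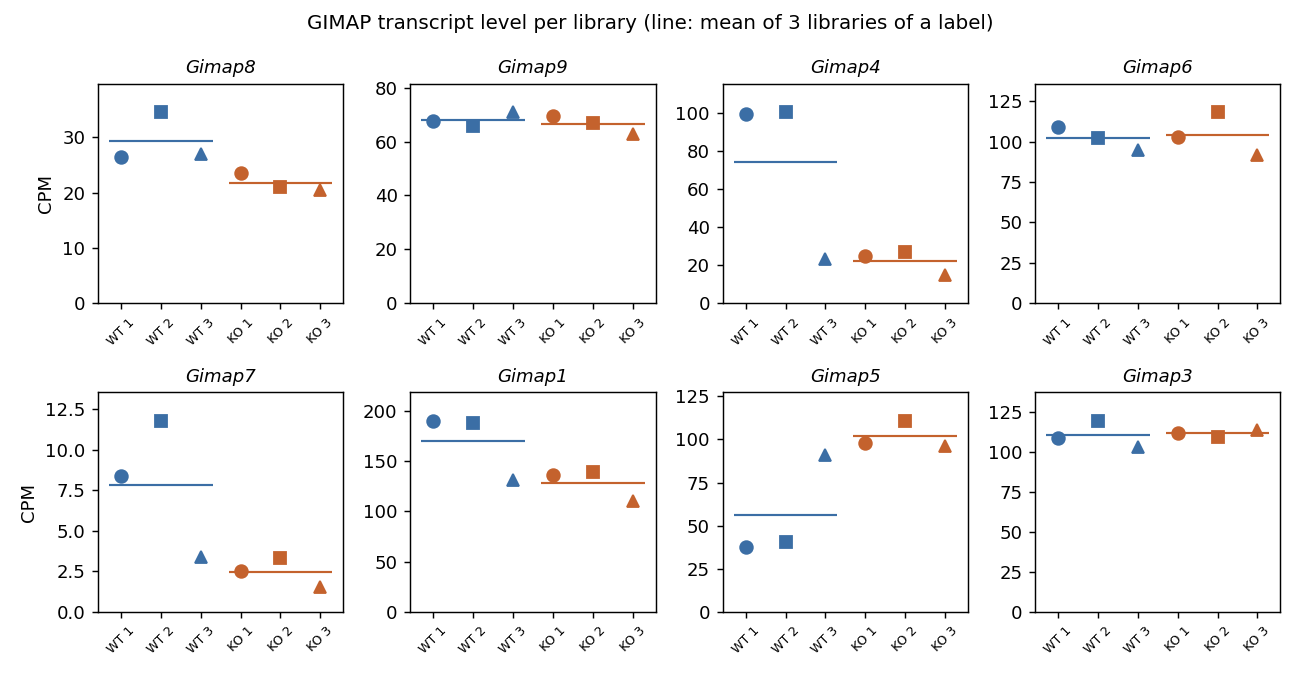
CPM (vertical axes, from 0) of the 8 GIMAP genes in the 6 libraries (horizontal axes), in chromosome order, with blue symbols for WT, orange for KO and a line at the mean of the 3 libraries of a label. For Gimap4, WT 1 and WT 2 sit at 99.2 and 100.1 CPM and the other 4 libraries at 14.9 to 27.0 CPM, while for Gimap5 WT 1 and WT 2 sit at 37.9 and 40.5 CPM and the other 4 at 90.7 to 111 CPM.

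Gimap4, whose product has been linked to the speed of lymphocyte death, had, with Gimap7, 1 of the 2 widest differences of the family, and which of them was wider depended on the fit. Its level was 99.2 and 100.1 CPM in WT 1 and WT 2, 23.3 CPM in WT 3, and 24.5, 27.0 and 14.9 CPM in KO 1, KO 2 and KO 3. WT 1 and WT 2 were far above the rest, and WT 3 lay inside the range of the knockout label. The group means were 74.2 ± 44.1 and 22.1 ± 6.41 CPM (SD, n = 3 each), and the log2 difference of -1.75 (SE 0.54) did not pass (adjusted p = 0.342, edgeR). Without WT 3 it fell by 2.16 on the log2 scale (SE 0.23, edgeR adjusted p = 0.000635), the mean of WT 1 and WT 2 being 4.51-fold that of the knockout label. It has no 50-base stretch in common with a transcript of any other gene, and its counts were whole numbers within 0.1 in all 6 libraries. Counts of Gimap6, Gimap8 and Gimap9 were also whole in all 6. Those of Gimap7 were whole in 3 libraries, of Gimap1 in 2, of Gimap3 in 1 and of Gimap5 in 0.

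Gimap7, which encodes a member that can stimulate GTP hydrolysis by dimerising with relatives, was the least abundant. It was at 8.36 and 11.8 CPM in WT 1 and WT 2, at 3.41 CPM in WT 3 and at 2.53, 3.33 and 1.56 CPM in KO 1, KO 2 and KO 3. The knockout label lay below every library labelled wild type, though WT 3 exceeded KO 2 by less than 0.1 CPM. These levels rest on 255, 360 and 103 counts under the wild-type label and on 73, 112 and 49 under the knockout label. The log2 difference was -1.66 with all 6 libraries (SE 0.52, edgeR adjusted p = 0.342), and Gimap7 fell by 2.01 without WT 3 (SE 0.36, edgeR adjusted p = 0.00537).

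Gimap1, which mature T and B cells need to persist, had the most counts of the family in every library but KO 3, where Gimap3 had more. It had 190.0 and 188 CPM in WT 1 and WT 2, 132 CPM in WT 3, and 136, 139.7 and 110.0 CPM in KO 1, KO 2 and KO 3. WT 3 again lay within the knockout range, and the groups overlapped. The log2 difference was -0.40 (SE 0.19, edgeR adjusted p = 0.355) with all 6 libraries, and Gimap1 fell by 0.55 without WT 3 (SE 0.12, edgeR adjusted p = 0.0123). Gimap1os, its antisense neighbour, was at 4.95, 4.81 and 3.31 CPM under the wild-type label and 3.88, 4.55 and 2.74 CPM under the knockout label. Whether the counting used strand is unstated, so reads over the 1107 exon bases that both genes cover cannot be assigned with certainty. Gimap1 had 30.7 to 40.1 counts for each count of Gimap1os.

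Gimap5 went the other way. It was at 37.9 and 40.5 CPM in WT 1 and WT 2, 90.7 CPM in WT 3, and 98.1, 111 and 96.4 CPM in KO 1, KO 2 and KO 3. The knockout label lay above all 3 libraries labelled wild type, with WT 3 close under it. The log2 difference was 0.85 with all 6 libraries (SE 0.34, edgeR adjusted p = 0.342). Gimap5 rose by 1.38 without WT 3 (SE 0.11, edgeR adjusted p = 0.000224), which is 2.59-fold.

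Gimap3 and Gimap5 are the closest relatives, with 88.9% identical bases over their aligned coding sequences, where the other 27 pairs reach at most 73.3%. Their transcripts share 190 stretches of 50 bases, 7.52% of those of Gimap3 and 4.53% of those of Gimap5, so short reads from these parts cannot be told apart. Gimap3 was at 109, 119 and 103 CPM under the wild-type label and 112, 109 and 114 CPM under the knockout label, a log2 difference of 0.02 (SE 0.12, edgeR adjusted p = 0.946). Adding the pair gives 147, 159.7 and 194 CPM under the wild-type label and 209.9, 220.1 and 210.2 CPM under the knockout label. The sum was lowest in WT 1 and WT 2. Gimap3 itself was lowest in WT 3. The part of shared reads in the Gimap5 result was not tested. Gm28053, which shares 153 exon bases with Gimap5, was at 1.70 to 2.38 CPM in all 6 libraries and did not pass in either edgeR fit (adjusted p = 0.797 and 0.821).

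Gimap6 and Gimap9 showed differences near 0, as did Gimap3. Gimap6, whose product binds GABARAPL2, was at 109, 102 and 94.9 CPM under the wild-type label and 103, 118 and 91.5 CPM under the knockout label, with a log2 difference of 0.03 (SE 0.14, edgeR adjusted p = 0.918). Gimap9 was the steadiest, between 63.0 and 70.9 CPM in all 6 libraries, with a log2 difference of -0.03 (SE 0.12, edgeR adjusted p = 0.882). Without WT 3 the log2 differences of Gimap3, Gimap6 and Gimap9 were -0.02 (SE 0.09), -0.01 (SE 0.12) and 0.00 (SE 0.10). Gimap8, which carries several GTP-binding domains in 1 protein, was at 26.4, 34.5 and 27.0 CPM under the wild-type label and 23.6, 20.9 and 20.5 CPM under the knockout label. Its groups did not overlap, and here WT 3 stood with WT 1 rather than with the knockout label. Its log2 difference of -0.44 (SE 0.17) did not pass with all 6 libraries, and at -0.49 (SE 0.17) it did not pass without WT 3 either (edgeR adjusted p = 0.342 and 0.0609).

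**Figure D2:**
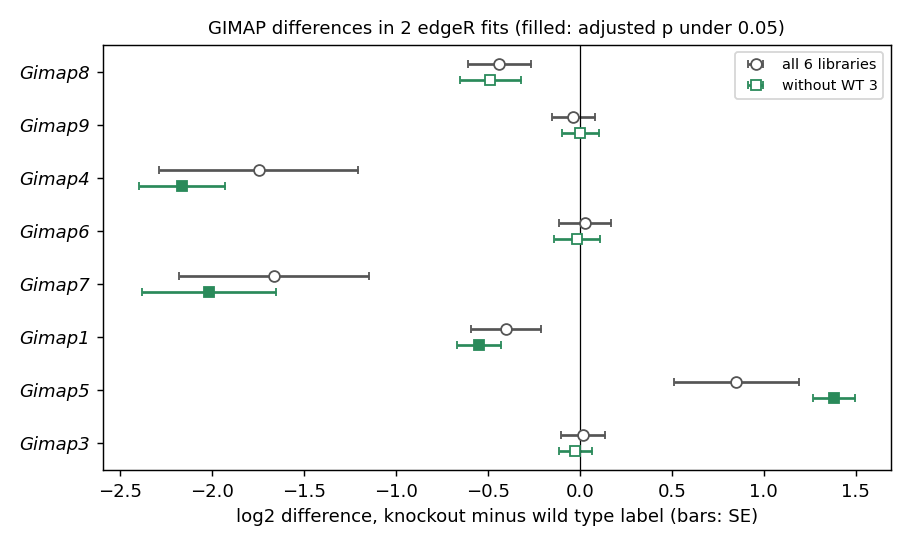
Log2 difference of knockout minus wild-type label (horizontal axis) for each GIMAP gene, with bars of 1 SE, from edgeR fits to all 6 libraries (grey circles) and without WT 3 (green squares), filled where the adjusted p is under 0.05. Filled symbols appear only without WT 3, for Gimap4 (-2.16), Gimap7 (-2.01), Gimap1 (-0.55) and Gimap5 (1.38).

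Ratios between members of 1 library do not depend on how libraries are scaled. For each count of Gimap4 there were 0.382 and 0.405 counts of Gimap5 in WT 1 and WT 2, but 3.89 in WT 3 and 4.01, 4.10 and 6.48 in KO 1, KO 2 and KO 3. Gimap4 exceeded Gimap5 in WT 1 and WT 2 and was exceeded by it in the other 4 libraries. Gimap4 made up 15.3% of all GIMAP counts in WT 1 (95% Wilson interval 14.8 to 15.8%) and 4.28% in WT 3 (3.98 to 4.60%). Among the libraries labelled knockout its share was lowest in KO 3, at 2.91% (2.66 to 3.18%), and highest in KO 2, at 4.53% (4.25 to 4.83%). Gimap5 took 5.85% in WT 1 (5.53 to 6.19%), 16.6% in WT 3 (16.1 to 17.2%) and 17.2% in KO 1 (16.7 to 17.8%). The intervals include no error but that of counting, as copies of 1 molecule cannot be recognised in these reads. The summed level of the family moved less than these members, with 647, 663 and 545 CPM under the wild-type label and 569.6, 596 and 512 CPM under the knockout label.

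**Figure D3:**
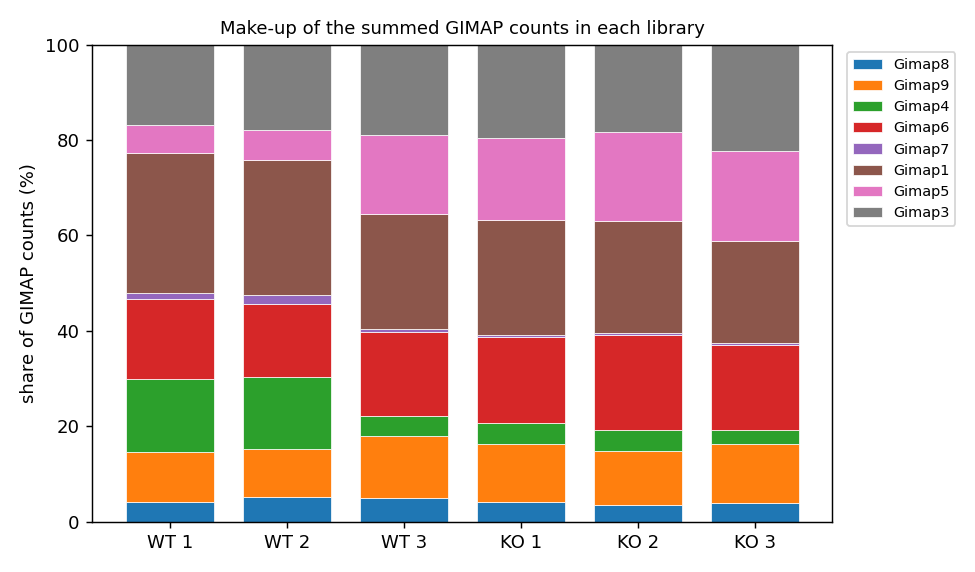
Share of each GIMAP gene in the summed GIMAP counts (vertical axis, %) of the 6 libraries (horizontal axis). The Gimap4 segment is 15.3% in WT 1 and 2.91 to 4.53% under the knockout label, while the Gimap5 segment is 5.85% in WT 1 and 18.9% in KO 3.

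Per kilobase of annotated exon the order of the members differed between libraries. In WT 1 and WT 2, Gimap1 led at 61.8 and 61.2 CPM per kilobase, followed by Gimap4 at 54.0 and 54.5. Next came Gimap3 (42.2 and 46.3), Gimap9 (41.1 and 40.1) and Gimap6 (31.2 and 29.3), then Gimap5 (9.12 and 9.77) close above Gimap8 (7.14 and 9.33), and Gimap7 last (3.60 and 5.07). Under the knockout label Gimap3 was at 43.3 ± 0.84, Gimap1 at 41.9 ± 5.31 and Gimap9 at 40.5 ± 2.03 CPM per kilobase (SD, n = 3). On this length these 3 could not be ranked, as they differed by less than the SD of Gimap1. Below them Gimap6 (29.8 ± 3.82) and Gimap5 (24.5 ± 1.87) were next and their ranges overlapped. Gimap4 (12.0 ± 3.49) was below both, then Gimap8 (5.85 ± 0.45) and Gimap7 (1.06 ± 0.38). The library labelled WT 3 had Gimap4 at 12.7 and Gimap5 at 21.9 CPM per kilobase, with Gimap6 at 27.1, so its order of these 3 was that of the knockout label and not that of WT 1 and WT 2. Per kilobase of the longest coding transcript Gimap5 reached 52.1 ± 3.97 under the knockout label, level with Gimap3 (51.0 to 53.0), so its rank depends on the length used.

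Differences did not follow position in the cluster. Gimap1 and Gimap5, neighbours on the same strand, differed in opposite directions, and Gimap4 lies between Gimap9 and Gimap6, both near 0. Of the genes with a count that flank the cluster, the nearest 3 on the Gimap8 side (AI854703, Zfp775 and Repin1) did not pass without WT 3 (edgeR adjusted p from 0.0708 to 0.234). On the Gimap3 side, Tmem176b, at 52.3, 54.1 and 43.3 CPM and then 50.9, 45.2 and 24.7 CPM, did not pass either (-0.40, SE 0.28, adjusted p = 0.321). Tmem176a, a related membrane protein gene 70068 bases from the cluster, was at 22.4, 23.9 and 10.3 CPM and then 13.0, 9.97 and 4.69 CPM. Its log2 difference was -1.03 with all 6 libraries (adjusted p = 0.347), and it fell by 1.32 without WT 3 (SE 0.38, adjusted p = 0.0328). Gpnmb, 265695 bases away, was at -2.34 with all 6 libraries (adjusted p = 0.353) and fell by 2.90 without WT 3 (SE 0.49, adjusted p = 0.00411), from 9.67 and 10.4 CPM in WT 1 and WT 2, with 0.33 CPM in WT 3. The lincRNA 4833403J16Rik, between Gimap5 and Gimap3, lay between 0.425 and 0.721 CPM in the WT libraries, against 1.47 to 1.59 CPM in the KO libraries, and did not pass (adjusted p = 0.072). Gm44226, which overlaps it on the other strand, was at 0.361 to 1.42 CPM and did not pass (adjusted p = 0.265). Both rest on few counts, 22.4 of 4833403J16Rik and 10.6 of Gm44226 in WT 1. These counts are fractional, so reads were divided by estimate and the levels of the pair are not separate measurements.

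**Figure D4:**
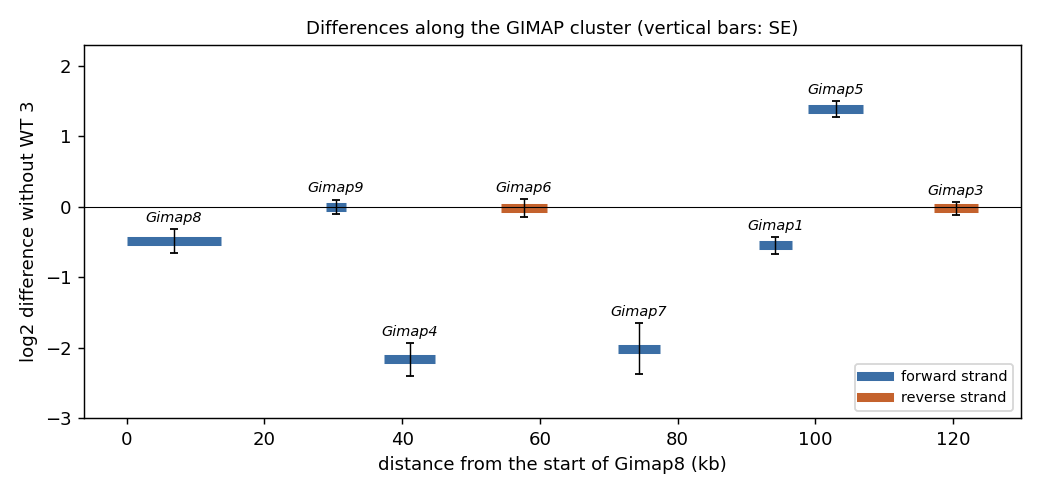
Log2 difference without WT 3 (vertical axis, with bars of 1 SE) against distance along chromosome 6 from the start of Gimap8 (horizontal axis, kb), each bar spanning a gene, blue for the forward and orange for the reverse strand. Gimap5 (1.38) lies beside Gimap1 (-0.55), and both reverse-strand genes, Gimap6 and Gimap3, are near 0.

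The genes whose pattern over the 6 libraries was most like that of the family's summed CPM were Sun1, Rp9, Taf6l, Spcs1 and Snrnp25. This sum ranged only from 512 to 663 CPM, and Gimap4 and Gimap5 moved in opposite directions within it. A gene like the sum need not be like any single member. Likeness was the mean absolute difference of centred log2(CPM + 0.5), which was 0.0118 for Sun1 and 0.0264 for Snrnp25 among 9465 genes compared. Sun1, which encodes a nuclear envelope protein, was at 68.7, 72.0 and 58.3 CPM under the wild-type label and 61.0, 62.8 and 54.2 CPM under the knockout label.

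Gene lists that border on GIMAP biology were read from the same fits, without a test of the lists. With all 6 libraries none of their members passed in edgeR, as for all genes, whose median log2 difference was 0.02 both with all 6 libraries and without WT 3. The GIMAP median was -0.22 with all 6 and -0.25 without WT 3. Other immune GTPases, the interferon-induced IRG, GBP and MX families that attack vacuoles and viruses, had the lowest median, at -1.28 and then -1.61. Without WT 3, 10 of 15 tested fell, 0 rose and 5 did not pass, where 16.1% of all genes fell and 17.7% rose. Some of these gene models overlap on the same strand, as Gbp4, Gbp8 and Gbp9 do, and may share reads, which was not tested. Gbp4 was at 333, 295 and 65.6 CPM and then 63.7, 61.1 and 70.1 CPM, with a log2 difference of -1.83 in all 6 libraries, and without WT 3 it fell by 2.27 (SE 0.10, edgeR adjusted p = 3.62e-05). Gbp6 was at 88.6, 84.0 and 18.0 CPM and then 13.0, 13.1 and 20.5 CPM, with -2.03 in all 6, and without WT 3 it fell by 2.47 (SE 0.21).

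The ATG8 family and its processing enzymes, which include the partner of the Gimap6 protein, had a median of 0.02 and then 0.03. Of 14 genes 1 rose, 3 fell and 10 did not pass without WT 3, against 17.7% of all genes that rose and 16.1% that fell. Gabarapl1, the member that rose, was at 43.0, 42.2 and 103 CPM and then 117, 115 and 157 CPM, a log2 difference of 1.05 with all 6 libraries and 1.61 without WT 3. Atg7, an enzyme of the same conjugation route as Atg5, was at -0.60 with all 6 libraries and fell by 0.79 without WT 3 (SE 0.10). Gabarapl2, named here because its product binds that of Gimap6 and after its values were seen, was at 134, 156 and 109.6 CPM and then 112, 111 and 121 CPM. Its log2 difference was -0.21 with all 6 libraries, and it fell by 0.33 without WT 3 (SE 0.10, edgeR adjusted p = 0.0458).

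Lysosomal membrane proteins and hydrolases, the compartment of the Gimap5 protein, had a median of -0.32 and then -0.46. Without WT 3, 12 of 23 fell, 2 rose and 9 did not pass, beside 16.1% and 17.7% of all genes. Tfeb, which drives lysosomal genes, had a log2 difference of -1.35 with all 6 libraries and fell by 1.69 without WT 3 (SE 0.19). Gaa, the lysosomal glucosidase, was 1 of the genes that rose (0.20 with all 6 libraries, 0.37 without WT 3, SE 0.10, edgeR adjusted p = 0.0254).

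Genes of the BCL2 family, with which GIMAP proteins have been reported to interact, had a median of -0.19 and then -0.24. Of 15 genes tested 2 rose, 1 fell and 12 did not pass without WT 3, where 17.7% of all genes rose and 16.1% fell. Mcl1, a survival protein, was at 295, 301 and 190.1 CPM and then 216, 192 and 192 CPM, with a log2 difference of -0.39 in all 6 libraries, and fell by 0.57 without WT 3 (SE 0.09, edgeR adjusted p = 0.00321). Bid, which promotes death, was at 6.85, 8.12 and 31.7 CPM and then 36.9, 33.1 and 24.3 CPM, with 1.02 in all 6, and rose by 2.08 without WT 3 (SE 0.23, edgeR adjusted p = 0.000703). Bcl2l1, another survival gene, named after its values were seen, was at 157, 162 and 225 CPM and then 199, 228 and 222 CPM. Its log2 difference was 0.26 with all 6 libraries, and it rose by 0.45 without WT 3 (SE 0.10, edgeR adjusted p = 0.0105). Bcl2a1b, at 2.20 to 8.87 CPM and with near-identical copies in the genome, did not pass.

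Genes of lymphocyte quiescence and recirculation, a state in which T cells are known to hold high GIMAP levels, went both ways, with a median of 0.03 and then -0.06. Without WT 3, 3 of 17 rose, 4 fell and 10 did not pass, beside 17.7% of all genes that rose and 16.1% that fell. Lef1 was at 27.2, 25.2 and 10.7 CPM and then 9.49, 9.34 and 8.11 CPM, with a log2 difference of -1.23 in all 6 libraries, and fell by 1.54 without WT 3 (SE 0.17). Btg2, which holds back cell division, was at -1.32 and fell by 1.70 (SE 0.16) in the same fits. Ccr7, the receptor for lymph node homing, was at 2.03, 2.81 and 24.2 CPM and then 24.2, 28.1 and 29.9 CPM, with 1.504 in all 6 libraries, and rose by 3.50 without WT 3 (SE 0.24, edgeR adjusted p = 0.000123). Leaving out KO 3 as well gave 5 that rose and 8 that fell in this list, and 2 and 4 in the BCL2 family, where 22.7% of all genes rose and 22.7% fell. The same fit gave 2 and 4 among the ATG8 genes, 3 and 16 among the lysosomal genes and 0 and 12 among the other immune GTPases.

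**Figure D5:**
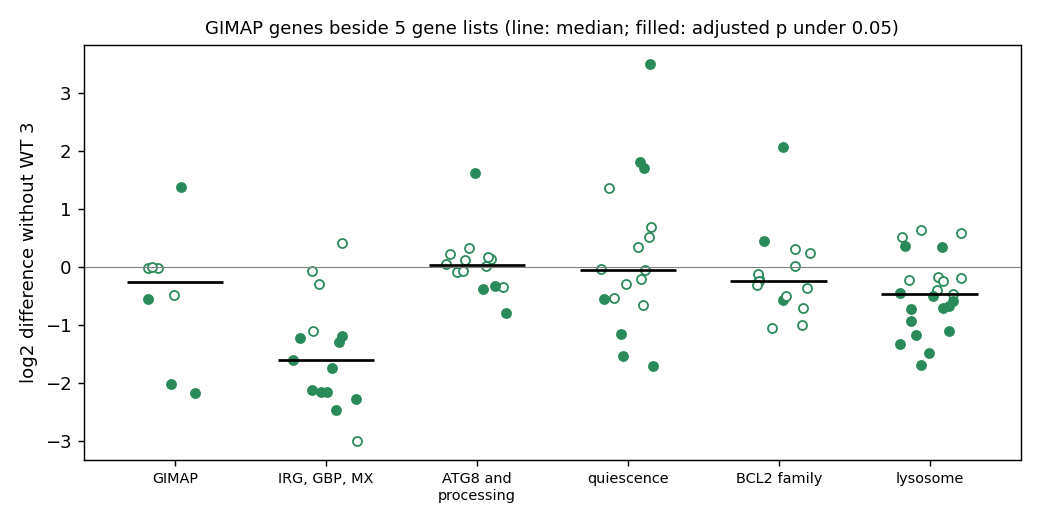
Log2 difference without WT 3 (vertical axis) of the tested members of the GIMAP family and of 5 gene lists (horizontal axis), each point a gene, filled where the edgeR adjusted p is under 0.05, with a line at the median. The GIMAP genes spread from -2.16 to 1.38 around a median of -0.25, and the IRG, GBP and MX genes lie around a median of -1.61.

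T cells and endothelium also express GIMAP genes, so markers of other cells were read beside these results. In bulk RNA, fewer cells of a type and less RNA per cell cannot be told apart. Of 9 T cell markers 7 were analysed, 2 of them at 1 CPM or more in every library. Their sum ranged over 22.7 to 41.6 CPM in the libraries labelled wild type, and over 23.9 to 26.1 CPM in those labelled knockout. WT 1 and WT 2 were highest, mainly through Cd3g (35.3 and 37.2 CPM, and 11.4 to 18.8 CPM elsewhere), while Cd3e was at 2.39 to 4.41 CPM, Cd4 at most 2.90 CPM and Cd8b1 at most 0.319 CPM. Endothelial markers, of which 4 of 7 were analysed, summed to 9.62 to 95.6 CPM and 93.6 to 132 CPM. This sum was nearly all Pecam1 (10.4, 8.54 and 93.1 CPM, then 107, 92.0 and 131 CPM), whereas Cldn5 and Vwf did not exceed 0.277 CPM and each was at 0 in 4 libraries. B cell markers (5 of 7 analysed) summed to 25.2 to 31.8 CPM and 26.1 to 201 CPM, the top value being KO 3 with Ighm at 194 CPM.

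NK cell and ILC1 markers (3 of 7 analysed) summed to at most 3.01 CPM, macrophage and monocyte markers (6 of 7) to at most 12.0 CPM, and granulocyte and mast cell markers (5 of 7) to at most 12.8 CPM. These 3 sums were highest in WT 1 or WT 2. Epithelial markers (4 of 6 analysed) summed to 14.9 to 58.2 CPM and 9.35 to 29.1 CPM. Epcam made up most of this sum except in KO 2, where Scgb1a1 was at 15.02 CPM and Epcam at 13.7 CPM. The 10 ILC2 genes summed to 5815 to 9004 CPM (wild-type label) and 5541 to 5722 CPM (knockout label), with WT 3 close to the knockout label. In edgeR without WT 3, 7 of these genes fell and 0 rose, where 16.1% of all genes fell and 17.7% rose. Several of these sums move with Gimap4, Gimap7, Gimap1 and Gimap5, in that WT 1 and WT 2 differ from the other 4 libraries, and their part in the results was not tested.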

How the data were processed

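The authors deposited estimated counts per gene and a normalized signal. The submitters' processing notes list mm10, Partek, STAR and CASAVA 1.8.2 without roles. Each library's deposited signal is its estimated counts raised by 1 and scaled by a constant. Columns carry the names found in the labels. The members and gene lists were chosen with earlier results of these data known. Gene ends in the deposited table were lowered by 1 base to match GENCODE vM21, the source of exons.

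Estimated counts were rounded. Differences were fitted by edgeR 4.0.16 under R 4.3.3 (TMM, filterByExpr, robust glmQLFit, glmQLFTest, no covariate). P-values were adjusted over all genes by Benjamini-Hochberg, with a threshold of 0.05. An SE is the size of the log2 difference divided by the square root of F. Alternatives were DESeq2 1.42.0, limma 3.58.1, other scalings and filters, the replicate number as a block, and fits without 1 library or without both numbered 3. Named genes are Atg5, the members, genes within and flanking the cluster (3 on each side), 5 with the most similar pattern, and from each list the pair of smallest p with all libraries and, of genes passing without WT 3, the largest change each way. A gene that this rule names is not reported here. Only the main edgeR model was tested on simulated data, which had a fixed dispersion and no library at odds with its label. Protein sequences were not used here, so identity is over coding sequences (longest per gene, global alignment).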

Additional observations from a re-analysis of the deposited data

How the results depend on the processing

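The count of genes past the threshold was 0 with all 6 libraries in edgeR (2026 at an unadjusted p under 0.05), 323 with DESeq2, 0 to 4991 when 1 library was left out, and 6505 without both libraries numbered 3. Among the GIMAP members the same settings gave 0, 1 (Gimap4), 0 to 4, and 4. All calls on leaving out 1 library came from leaving out WT 3, and the cause was not tested. The other scalings and filters, non-robust dispersion, limma-voom, limma-trend and a threshold of 0.1 also gave 0 for both counts, where edgeR with other scalings had 2017 to 2083 genes at an unadjusted p under 0.05. The replicate number as a block gave 0 genes and 0 members (1999 genes at an unadjusted p under 0.05). Same-numbered libraries did not deviate together (r = -0.04, 0.02 and -0.01 over genes), so the numbers were not treated as pairs.

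Gimap1, Gimap4, Gimap5, Gimap7 and Gimap8 kept their direction under every alternative. Over the fits without 1 library Gimap4 ranged from -2.16 to -1.47, Gimap7 from -2.01 to -1.25, Gimap1 from -0.55 to -0.29, Gimap8 from -0.53 to -0.30 and Gimap5 from 0.61 to 1.38. Gimap3, Gimap6 and Gimap9 changed sign around 0. Gimap3 was at -0.011 both with upper-quartile scaling and with limma-trend, -0.019 with no filter, -0.020 with the stricter filter, -0.036 without both libraries numbered 3, and -0.024 to 0.075 without 1 library. Gimap6 was at -0.0061 with no filter, -0.0081 with the stricter filter, -0.0060 with limma-trend and -0.10 to 0.12 without 1 library. Gimap9 was at 0.042 without both libraries numbered 3 and -0.067 to 0.0081 without 1 library. Depth limits Gimap7 most, at 49 to 360 counts.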
